A study of Homo sapiens with 30 samples.

Results

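The genes described here are 8 components of the plasminogen activation system, its serpin relatives and the neighbouring thrombomodulin pathway, out of 60675 genes in the deposited table. They are the urokinase and tissue-type plasminogen activators (PLAU and PLAT), the urokinase receptor (PLAUR), the serpins SERPINE2 and SERPINB2, the paired serpins SERPINB3 and SERPINB4, and thrombomodulin (THBD). They were named as a set from their levels in these same libraries, because SERPINB2 rose with dose in the herbal formulas and SERPINB3 rose with Poria Cocos. Those values are therefore given as descriptions with no test: SERPINB2 in the formulas against vehicle and between doses, and SERPINB3 with Poria Cocos. All 8 genes were found by symbol, and all had at least 10 counts in each of 30 libraries, so none was lost to the filter on low counts.

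RNA was sequenced from SW1783, an established human astrocytoma cell line, 24 h after adding a herbal extract or its vehicle, which is 0.1% DMSO in the sample labels and 2% in the series description. The vehicle group had 3 libraries. Palmul-tang and Sibjeondaebo-tang, water extracts of multi-herb formulas, each had 3 libraries at 20, 100 and 500 µg/mL. Samul-tang, a water extract of a smaller formula, and the ethanol extracts of the single herbs Poria Cocos and Atractylodis Rhizoma each had 1 library per dose. Thus 9 of 16 groups were single libraries. Below, the formulas are Palmul-tang and Sibjeondaebo-tang unless Samul-tang is named. Doses are masses of whole extract. By traditional recipe the extracts are nested: the herbs of Samul-tang are part of Palmul-tang, those of Palmul-tang are part of Sibjeondaebo-tang, and Poria belongs to the latter pair.

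Total counts ran from 22.57 M to 37.82 M per library. The library of Sibjeondaebo-tang 500 µg/mL replicate 3 stood apart: its chi-square per gene was 8.144 and 7.421 against its companions, which differed from each other by 2.636, and results that rest on it are given with and without it. At 100 µg/mL of Sibjeondaebo-tang, replicates 1 and 2 also differed by 6.678, against 4.158 for 1 and 3 and 3.764 for 2 and 3. The sample codes of the vehicle libraries form a set of their own, so treatment and handling cannot be told apart in any comparison with vehicle. Libraries of 1 extract share a code set, as do both formulas and both single herbs. The labels do not say whether replicate libraries are separate cultures, so p-values measure the spread between these libraries, which may be technical. Markers of astrocytes and glioma were uneven: GFAP, S100B, AQP4 and ALDH1L1 had median levels of 0.0649, 0.0709, 0.0153 and 0.0339 CPM (counts per M of the library's scaled total), while SLC1A3 and GLUL, also made by astrocytes, were at 24.2 and 52.5 CPM and VIM, CD44 and SOX9 at 4973, 2802 and 66.8 CPM. Of 11 astrocyte and glioma markers listed, 7 passed the filter and 5 had a median below 1 CPM.

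Plasminogen is cut to plasmin, a protease that dissolves fibrin and degrades matrix, by urokinase and tissue-type plasminogen activator. Urokinase acts at the cell surface when bound to its receptor PLAUR, and the activators are held in check by serpins, suicide inhibitors that trap a protease in a covalent complex. SERPINB2 (PAI-2) is among these inhibitors, and SERPINE2 (protease nexin-1) inhibits thrombin as well. Thrombomodulin redirects thrombin from clotting to the activation of protein C, and in the brain these proteases also act on matrix, synapses and receptors. Plasminogen itself (PLG) was at or near 0 here, with group means from 0 to 0.0694 CPM.

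Compared per length (CPM per kilobase of exon, median over 30 libraries), SERPINE2 was the highest of the set at 85.2, with libraries from 78.3 to 88.5. PLAT followed at 53.2 (43.3 to 64.8), then PLAU at 37.3 (29.8 to 46.3), whose range met that of PLAT. PLAUR at 17.3 (14.7 to 21.0) and SERPINB2 at 15.5 (9.86 to 43.9) overlapped, as did SERPINB3 at 2.33 (1.14 to 3.27) and THBD at 2.09 (1.52 to 3.69). SERPINB4 was lowest at 0.83 (0.363 to 1.28). The order by spread was different: the highest library was 4.45 times the lowest for SERPINB2, 3.54 times for SERPINB4, 2.86 times for SERPINB3, 2.43 times for THBD, and 1.55, 1.5, 1.43 and 1.13 times for PLAU, PLAT, PLAUR and SERPINE2. In bulk RNA, fewer cells making a transcript and less of it per cell cannot be told apart.

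**Figure D1:**
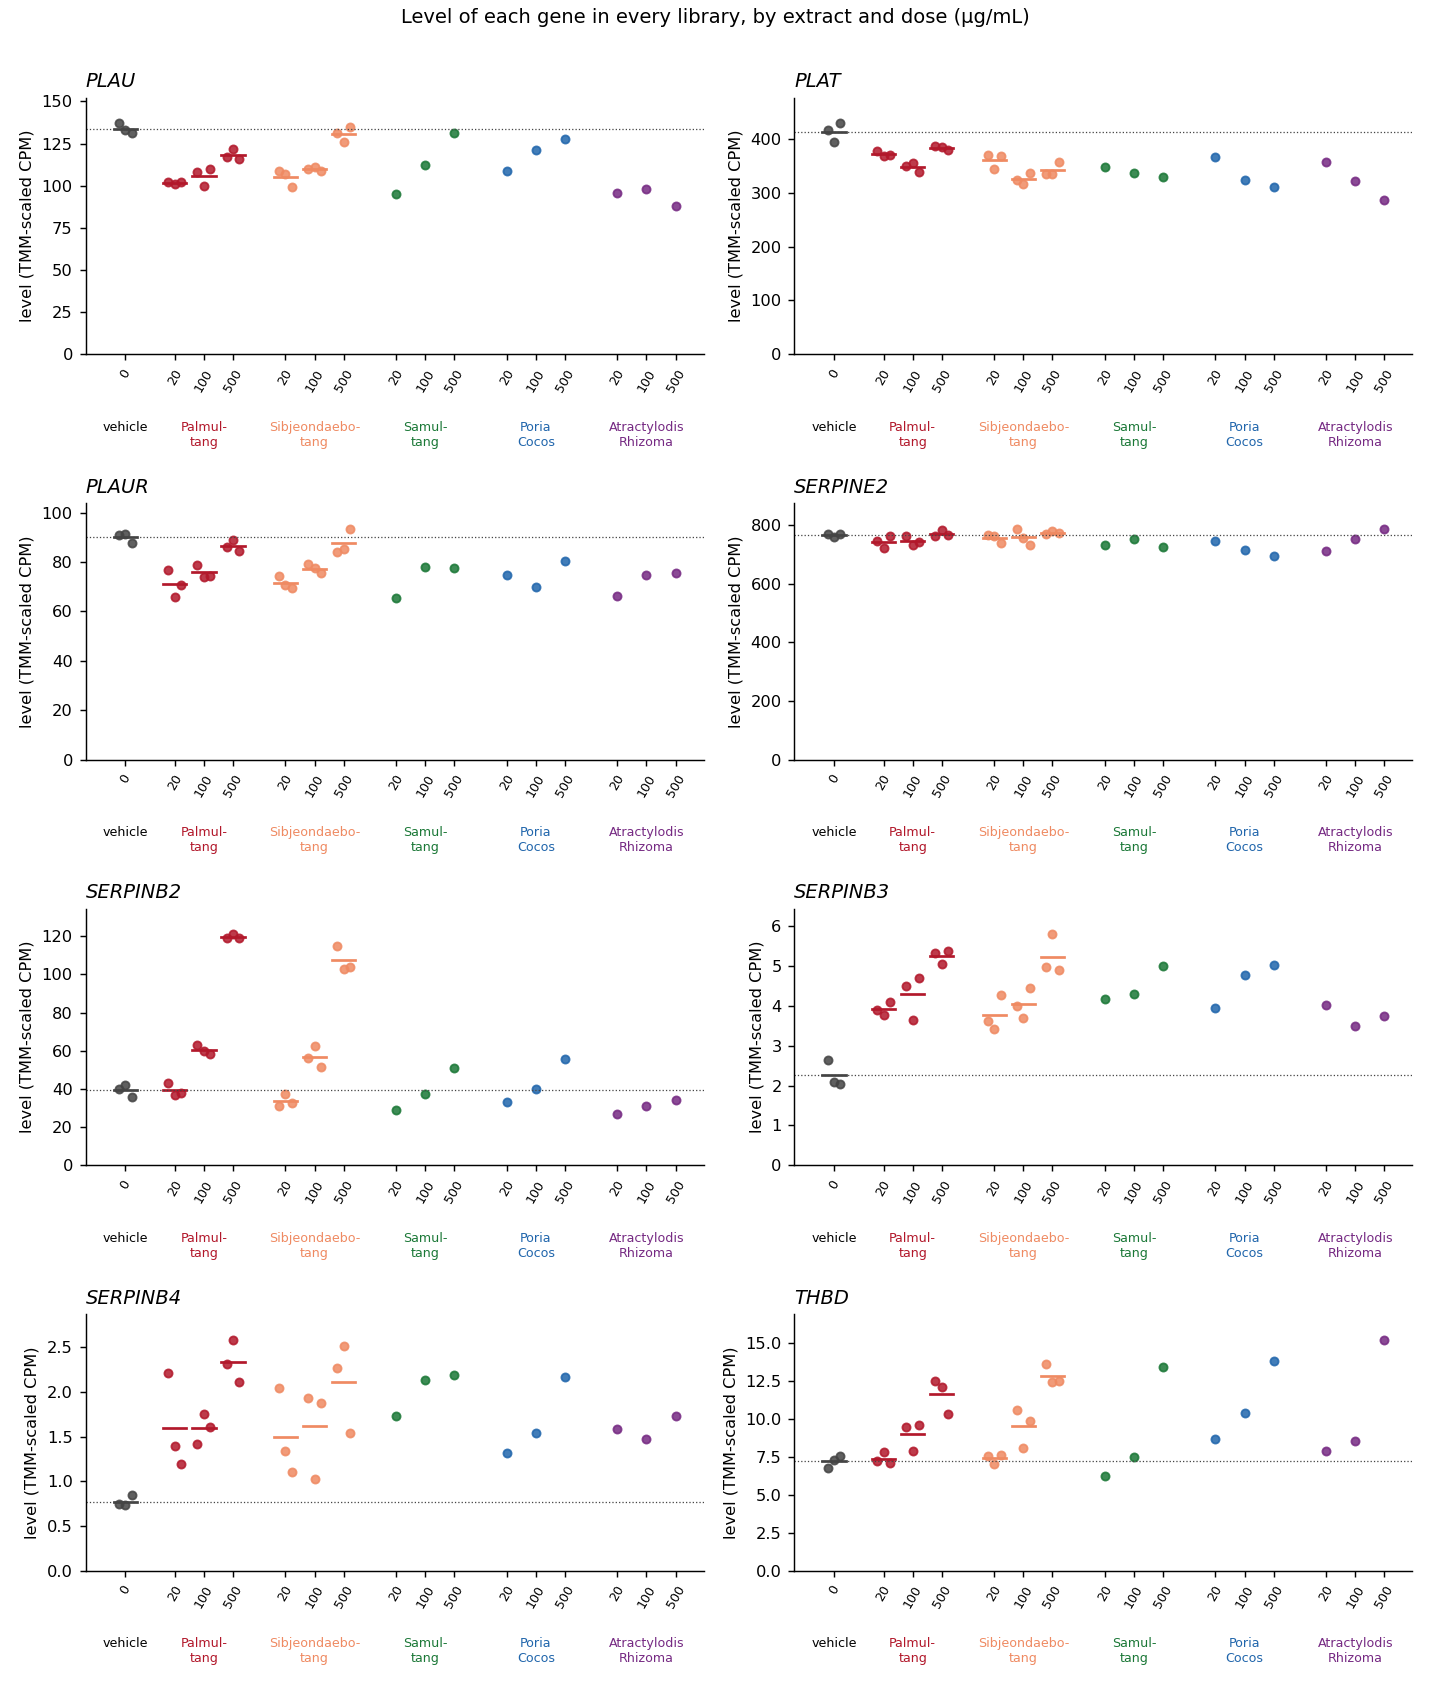
Level of each gene in CPM (vertical axes from 0, different for each gene) in every library (points), by extract and dose in µg/mL, with bars at means of 3 libraries and a dotted line at the vehicle mean. SERPINB2 at 500 µg/mL of the formulas lies between 103 and 121 CPM against 35.7 to 41.9 in vehicle, while SERPINE2 stays between 696 and 787 CPM throughout.

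PLAU, the gene of urokinase (ENSG00000122861, chromosome 10, 73909177 to 73917497, plus strand in GRCh38), was lower than vehicle at 20 µg/mL of either formula and climbed back with dose. Its vehicle libraries were at 137, 133 and 131 CPM. With Palmul-tang they were at 102, 101 and 102 CPM at 20 µg/mL, 108, 99.9 and 110 at 100 µg/mL, and 117, 122 and 116 at 500 µg/mL. With Sibjeondaebo-tang they were at 109, 107 and 99.1, then 110, 111 and 109, then 131, 126 and 135 CPM. All 20 and 100 µg/mL libraries lay below all vehicle libraries, the 500 µg/mL libraries lay above those at 20, and only at 500 µg/mL of Sibjeondaebo-tang did the values overlap vehicle. From 20 to 500 µg/mL PLAU rose by 0.22 ± 0.0389 (log2, SE) with Palmul-tang (adjusted p = 0.000239, quasi-likelihood test of edgeR, Benjamini-Hochberg adjusted over 17839 genes, as throughout) and by 0.32 ± 0.0383 with Sibjeondaebo-tang (adjusted p = 1.87e-07).

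PLAUR, which anchors urokinase at the cell surface (ENSG00000011422, chromosome 19, 43646095 to 43670547, minus strand), followed the same order of groups. Vehicle libraries were at 91.1, 91.2 and 87.5 CPM. Palmul-tang gave 76.9, 65.8 and 70.5 CPM at 20 µg/mL, 78.8, 74.0 and 74.5 at 100 µg/mL and 86.2, 88.8 and 84.6 at 500 µg/mL. Sibjeondaebo-tang gave 74.2, 70.6 and 69.5, then 79.0, 77.4 and 75.4, then 84.1, 85.1 and 93.4 CPM. The lower doses were all below vehicle, and both 500 µg/mL groups overlapped it. The rise from 20 to 500 µg/mL was 0.28 ± 0.0464 log2 (adjusted p = 5.75e-05) and 0.29 ± 0.0458 log2 (adjusted p = 2.52e-05). The highest PLAUR value of the series came from the library that stood apart, and without it the Sibjeondaebo-tang rise was 0.24 log2 (adjusted p = 0.000262).

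PLAT, the tissue-type activator (ENSG00000104368, chromosome 8, 42175233 to 42207724, minus strand), did not climb back in this way. It was at 417, 394 and 429 CPM in vehicle. With Palmul-tang it was at 377, 368 and 371 CPM at 20 µg/mL, 349, 355 and 339 at 100 µg/mL, and 387, 385 and 379 at 500 µg/mL. With Sibjeondaebo-tang it was at 371, 345 and 368, then 324, 316 and 336, then 335, 334 and 357 CPM. Every treated library was below every vehicle library, and in both formulas the 100 µg/mL mean was the lowest. The change from 20 to 500 µg/mL was 0.04 log2 (95% interval -0.03 to 0.12, adjusted p = 0.612) with Palmul-tang and -0.08 log2 (-0.15 to -0.01, adjusted p = 0.233) with Sibjeondaebo-tang. Without the Sibjeondaebo-tang library that stood apart, that second value was -0.11 log2 and passed (adjusted p = 0.0479).

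SERPINE2, an inhibitor of thrombin and of the activators (ENSG00000135919, chromosome 2, 223975112 to 224039319, minus strand), hardly moved in the formulas. Its means were 765 ± 5.76 CPM in vehicle (SD, n = 3), 744 ± 20.1, 746 ± 16.5 and 771 ± 11.1 at rising doses of Palmul-tang, and 757 ± 15.1, 758 ± 27.5 and 774 ± 4.18 for Sibjeondaebo-tang. Its change from 20 to 500 µg/mL was 0.05 log2 (95% interval -0.01 to 0.11, adjusted p = 0.423) and 0.03 log2 (-0.03 to 0.1, adjusted p = 0.671), and changes larger than 0.11 and 0.1 log2 lie outside these intervals. Its counts, from 16619 to 28699 per library, were the highest of the set.

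SERPINB2, the inhibitor PAI-2 (ENSG00000197632, chromosome 18, 63871692 to 63903890, plus strand), is shown with the bases before its RefSeq start site (GRCh38.p14, chr18:63887455-63887699, plus strand), because it had the widest range of the set. The stretch stops before the first exon that GENCODE release 29 places in the window. Capitals mark a match to the AP-1 motif TGANTCA, searched on both strands, and to the TATA box TATAAA, searched on the gene's strand.
SERPINB2: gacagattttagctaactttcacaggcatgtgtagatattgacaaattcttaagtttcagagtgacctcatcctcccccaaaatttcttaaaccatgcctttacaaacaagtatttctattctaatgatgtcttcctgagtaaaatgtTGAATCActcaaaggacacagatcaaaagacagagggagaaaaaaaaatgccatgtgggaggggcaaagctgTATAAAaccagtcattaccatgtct
The AP-1 match begins at position -102 and the TATA match at position -30 from the start site, and they do not overlap. Over 35116 RefSeq promoter windows of 300 bases (250 before the start site), 7.71% hold the AP-1 letters and 7.33% the TATA letters. PLAUR has an AP-1 match at position -186. The window of SERPINB2 holds no match to the NF-kappa B motif, which 11.3% of windows hold. A match of letters is a description of the sequence and not of binding.

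SERPINB2 was at 40.1, 41.9 and 35.7 CPM in vehicle. Palmul-tang gave 43.1, 36.6 and 37.9 CPM at 20 µg/mL, 62.9, 59.9 and 58.5 at 100 µg/mL, and 119, 121 and 119 at 500 µg/mL. Sibjeondaebo-tang gave 31.3, 37.3 and 32.7, then 56.3, 62.3 and 51.4, then 115, 103 and 104 CPM. At 20 µg/mL both formulas overlapped vehicle, and at each higher dose all libraries lay above all those of the dose before. The means at 500 µg/mL were 3.04 and 2.73 times the vehicle mean, and 3.04 and 3.18 times those at 20 µg/mL. Since these values chose the gene, no test is given for them. Leaving out the library that stood apart changed the Sibjeondaebo-tang difference between 500 and 20 µg/mL from 1.67 to 1.69 log2.

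With 16.6% of its 100-base stretches also in transcripts of SERPINB10, which overlaps it by 547 exon bases on the same strand, part of the SERPINB2 estimate depends on how reads were shared out. SERPINB10 was far lower, at 296.1 estimated counts over all libraries against 48199.9, and the sum of both gave 1.60 and 1.66 log2 between 500 and 20 µg/mL for Palmul-tang and Sibjeondaebo-tang. PLAU overlaps the antisense gene C10orf55 by 916 exon bases, with 685.8 against 94593.2 estimated counts. SERPINB3 overlaps SERPINB11, on the opposite strand, by 620 exon bases, with 1.0 against 3495.5 estimated counts. The strand setting of the counting is not given in the sources used here.

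SERPINB3 (ENSG00000057149, chromosome 18, 63655197 to 63661963, minus strand) and SERPINB4 (ENSG00000206073, chromosome 18, 63637259 to 63644298, minus strand) are neighbouring clade B serpins known as the squamous cell carcinoma antigens. They do not target the plasminogen activators: SERPINB3 is known chiefly as an inhibitor of cysteine proteases such as cathepsins and SERPINB4 of serine proteases such as cathepsin G. Their sequences are shown because the near-identity of the pair bears on how reads can be assigned. The stretches before their RefSeq start sites (GRCh38.p14, minus strand, chr18:63661964-63662143 and chr18:63644327-63644506) differ in 1 of 180 bases, in capitals, and the full 250 bases before the start sites in 3.
SERPINB3 before the start: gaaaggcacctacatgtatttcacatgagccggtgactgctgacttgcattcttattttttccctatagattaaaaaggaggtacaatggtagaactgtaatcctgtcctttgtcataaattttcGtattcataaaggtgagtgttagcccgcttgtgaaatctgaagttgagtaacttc
SERPINB4 before the start: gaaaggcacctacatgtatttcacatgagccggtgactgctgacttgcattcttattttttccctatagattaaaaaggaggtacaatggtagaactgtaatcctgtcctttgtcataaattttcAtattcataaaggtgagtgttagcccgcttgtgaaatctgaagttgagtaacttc
The coding sequences, from GENCODE release 29 transcripts, are 1173 bases each and identical at 1117 of them (95.2%), with a longest identical run of 129 bases. Bases 969 to 1058 of the coding sequence hold 13 of the 56 differences, in capitals.
SERPINB3 coding: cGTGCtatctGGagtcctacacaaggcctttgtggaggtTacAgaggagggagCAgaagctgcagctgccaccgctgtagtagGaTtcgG
SERPINB4 coding: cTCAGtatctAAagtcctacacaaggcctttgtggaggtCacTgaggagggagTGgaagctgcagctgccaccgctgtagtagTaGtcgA
Of the 100-base stretches of their transcripts, 3.21% of those of SERPINB3 and 2.71% of those of SERPINB4 were shared with the other gene. Estimated counts of both were fractional in 30 of 30 libraries, those of PLAU in 28 and those of SERPINB2 in 13, against 0 for SERPINE2, PLAUR, PLAT and THBD. PLAU had 0.0% of its stretches shared on its own strand, but the search did not cover the opposite strand, where C10orf55 lies. How far the split between the pair is uncertain was not measured. SERPINB3 took from 63.8 to 79.5% of their summed counts over all libraries, and from 70.7 to 78.0% in vehicle.

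Both genes were low and both were higher in every treated library than in every vehicle library. SERPINB3 was at 2.65, 2.10 and 2.03 CPM in vehicle. Palmul-tang gave 3.90, 3.78 and 4.10 CPM at 20 µg/mL, 4.51, 3.65 and 4.71 at 100 µg/mL and 5.34, 5.05 and 5.37 at 500 µg/mL. Sibjeondaebo-tang gave 3.63, 3.42 and 4.27, then 3.99, 3.69 and 4.45, then 4.99, 5.80 and 4.91 CPM. The 500 µg/mL libraries lay above all those at 20 µg/mL in both formulas, while the 2 lower doses overlapped. Between 20 and 500 µg/mL SERPINB3 rose by 0.42 ± 0.117 log2 with Palmul-tang (adjusted p = 0.0248) and by 0.47 ± 0.115 log2 with Sibjeondaebo-tang (adjusted p = 0.00794). These rises were lost with DESeq2 (adjusted p = 0.131 and 0.0638) and without single libraries. For Palmul-tang these were replicates 1 and 3 at 500 µg/mL and 1 and 2 at 20 µg/mL (adjusted p from 0.0809 to 0.0988), and for Sibjeondaebo-tang replicate 2 at 500 and at 20 µg/mL (adjusted p = 0.0745 and 0.0626). The summed counts of SERPINB3 and SERPINB4, which do not depend on how reads were split, rose by 0.45 log2 (adjusted p = 0.00658) and 0.47 log2 (adjusted p = 0.00338).

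SERPINB4 was at 0.746, 0.73 and 0.843 CPM in vehicle, or down to 16 counts in a library, where the 95% counting interval reaches 52.9% of the value. Palmul-tang libraries ran from 1.19 to 2.21 CPM at 20 µg/mL, 1.42 to 1.75 at 100 µg/mL and 2.11 to 2.58 at 500 µg/mL. Those of Sibjeondaebo-tang ran from 1.10 to 2.04, 1.03 to 1.93 and 1.54 to 2.51 CPM, overlapping between doses. The difference between 500 and 20 µg/mL was 0.53 log2 (adjusted p = 0.248) and 0.48 log2 (adjusted p = 0.298) and did not pass.

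THBD, the thrombin receptor thrombomodulin (ENSG00000178726, chromosome 20, 23045633 to 23049741, minus strand, 1 exon), rose with dose in both formulas. It was at 6.78, 7.30 and 7.58 CPM in vehicle. Palmul-tang gave 7.24, 7.82 and 7.08 CPM at 20 µg/mL, 9.49, 7.88 and 9.60 at 100 µg/mL, and 12.5, 12.1 and 10.3 at 500 µg/mL. Sibjeondaebo-tang gave 7.59, 7.01 and 7.64, then 10.6, 8.06 and 9.88, then 13.6, 12.4 and 12.5 CPM. Libraries at 20 µg/mL overlapped vehicle, those at 100 µg/mL lay above both, and those at 500 µg/mL lay above those at 100. The step from 20 to 100 µg/mL passed in neither formula by edgeR's test on all libraries. With Palmul-tang its nearest libraries, at 7.82 and 7.88 CPM, had overlapping 95% counting intervals of 6.81 to 8.92 and 6.87 to 8.99. How many of all genes are separated in this way was not counted. The rise from 20 to 500 µg/mL was 0.65 ± 0.095 log2 (adjusted p = 8.31e-06) with Palmul-tang and 0.79 ± 0.0918 log2 (adjusted p = 8.03e-08) with Sibjeondaebo-tang. The summed level of markers of endothelium, the cell type best known for thrombomodulin, was 30.4 to 34.3 CPM in vehicle and 34.1 to 41.4 CPM in treated libraries. KDR carried most of it at a median of 33.8 CPM, while CDH5 was at 0 and VWF and CLDN5 at 0.0995 and 0.0569 CPM, and 4 of the 6 markers had a median below 1 CPM. Their part in the THBD result was not tested.

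Counted together, 4 of the 7 genes with a test (SERPINB2 left out) rose from 20 to 500 µg/mL in Palmul-tang and 0 fell, with a median change of 0.28 log2. Of all 17839 genes tested 2.83% rose, 2.47% fell and the median was -0.001. In Sibjeondaebo-tang the count was again 4 and 0, for PLAU, PLAUR, SERPINB3 and THBD in both, with a median of 0.32 log2, against 3.45% rising, 2.79% falling and a median of 0.001 over all genes. Because the set was chosen with these data in view, the counts describe it and do not test it. From 20 to 100 µg/mL 0 of the 7 passed in either formula by edgeR's test, where 0.163% of all genes passed with Palmul-tang and 0.207% with Sibjeondaebo-tang. At an unadjusted p under 0.05 there were 2 with Palmul-tang (PLAT and THBD) and 3 with Sibjeondaebo-tang (PLAUR, PLAT and THBD), beside 4.37% and 5.40% of all genes. DESeq2 called 0 and 1 of the members, and 30 and 40 of all genes.

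From 100 to 500 µg/mL of Palmul-tang 4 genes rose, against 1.35% of all genes: PLAU by 0.16 log2 (adjusted p = 0.019), PLAUR by 0.19 (adjusted p = 0.0151), PLAT by 0.14 (adjusted p = 0.0208) and THBD by 0.37 (adjusted p = 0.019). Without replicate 1 or replicate 2 at 500 µg/mL the count was 0, and without replicate 2 or replicate 3 at 100 µg/mL it was 1 and 2. The differences stayed in the same direction, from 0.11 to 0.18 log2 for PLAU, 0.17 to 0.22 for PLAUR, 0.12 to 0.16 for PLAT and 0.28 to 0.46 for THBD over all alternatives. Calls over all genes went from 445 to 309 and 282 without replicates 1 and 2 at 500 µg/mL. With Sibjeondaebo-tang PLAU rose by 0.25 log2 (adjusted p = 3.43e-05), PLAUR by 0.18 (adjusted p = 0.0178) and THBD by 0.45 (adjusted p = 0.0013), against 1.67% of all genes. Without the library that stood apart PLAUR was at 0.13 log2 and did not pass (adjusted p = 0.115), nor did it without replicate 2 or 3 at 100 µg/mL (adjusted p = 0.0658 and 0.103) or with the compared groups alone (adjusted p = 0.102). Without replicate 2 at 100 µg/mL THBD was also lost (0.33 log2, adjusted p = 0.0513) and the count was 1.

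Against vehicle, the formulas at 20 µg/mL showed lower activators and receptor and higher SERPINB3 and SERPINB4. With Palmul-tang, PLAU fell by 0.39 log2 (adjusted p = 6.84e-09), PLAUR fell by 0.34 (adjusted p = 1.69e-06) and PLAT fell by 0.15 (adjusted p = 0.00162). SERPINB3 rose by 0.79 log2 (adjusted p = 5.38e-05) and SERPINB4 by 1.05 (adjusted p = 0.00917), and THBD was at 0.03 (adjusted p = 0.864). With Sibjeondaebo-tang the same 5 genes passed in the same directions: PLAU at -0.35, PLAUR at -0.33, PLAT at -0.20, SERPINB3 at 0.73 and SERPINB4 at 0.95 log2. The SERPINB4 call was lost without replicate 1 of Palmul-tang (0.73 log2, adjusted p = 0.0918), and in Sibjeondaebo-tang without its replicate 1 (0.65 log2, adjusted p = 0.141) or vehicle replicate 1 or 2 (adjusted p = 0.0659 and 0.0571). These comparisons, and those at the higher doses, share the vehicle libraries. For SERPINB3 the same libraries were the baseline of the Poria Cocos values that chose it. In each formula 10.5% of all genes were higher and 13.3% lower at this dose, so passing a test against vehicle was common among all genes.

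At 500 µg/mL the higher genes were SERPINB3, SERPINB4 and THBD in both formulas, where 12.9% of all genes were higher and 14.9% lower with Palmul-tang and 11.7% and 13.3% with Sibjeondaebo-tang. SERPINB3 was 2.31 and 2.3 times vehicle, at 1.21 log2 (adjusted p = 1.1e-08) and 1.20 log2 (adjusted p = 1.08e-08). SERPINB4 was at 1.58 log2 (adjusted p = 7.09e-05) and 1.43 log2 (adjusted p = 0.00027), and THBD at 0.68 log2 (adjusted p = 1.53e-06) and 0.83 log2 (adjusted p = 2.77e-08). PLAT stayed lower, at -0.11 log2 (adjusted p = 0.0207) and -0.27 log2 (adjusted p = 3.88e-07), the first of which was lost without vehicle replicate 1 or 3 or Palmul-tang replicate 3 (adjusted p from 0.0628 to 0.148). PLAU was lower with Palmul-tang at -0.18 log2 (adjusted p = 0.00061) and did not pass with Sibjeondaebo-tang at -0.03 log2 (adjusted p = 0.617). PLAUR passed in neither, at -0.06 and -0.04 log2 (adjusted p = 0.398 and 0.588). At 100 µg/mL 3 genes were higher (SERPINB3, SERPINB4, THBD) and 3 lower (PLAU, PLAUR, PLAT) in each formula, beside 10.2% and 12.8% of all genes with Palmul-tang and 11.3% and 13.3% with Sibjeondaebo-tang. THBD at that dose was at 0.31 log2 (adjusted p = 0.0209) and 0.38 log2 (adjusted p = 0.00387), the first lost without vehicle replicate 1 or Palmul-tang replicate 1 or 3 (adjusted p from 0.0833 to 0.111). SERPINB4 with Sibjeondaebo-tang at that dose was at 1.01 log2 (adjusted p = 0.0107), and the call was lost without its replicate 3 (0.87 log2, adjusted p = 0.0539).

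**Figure D2:**
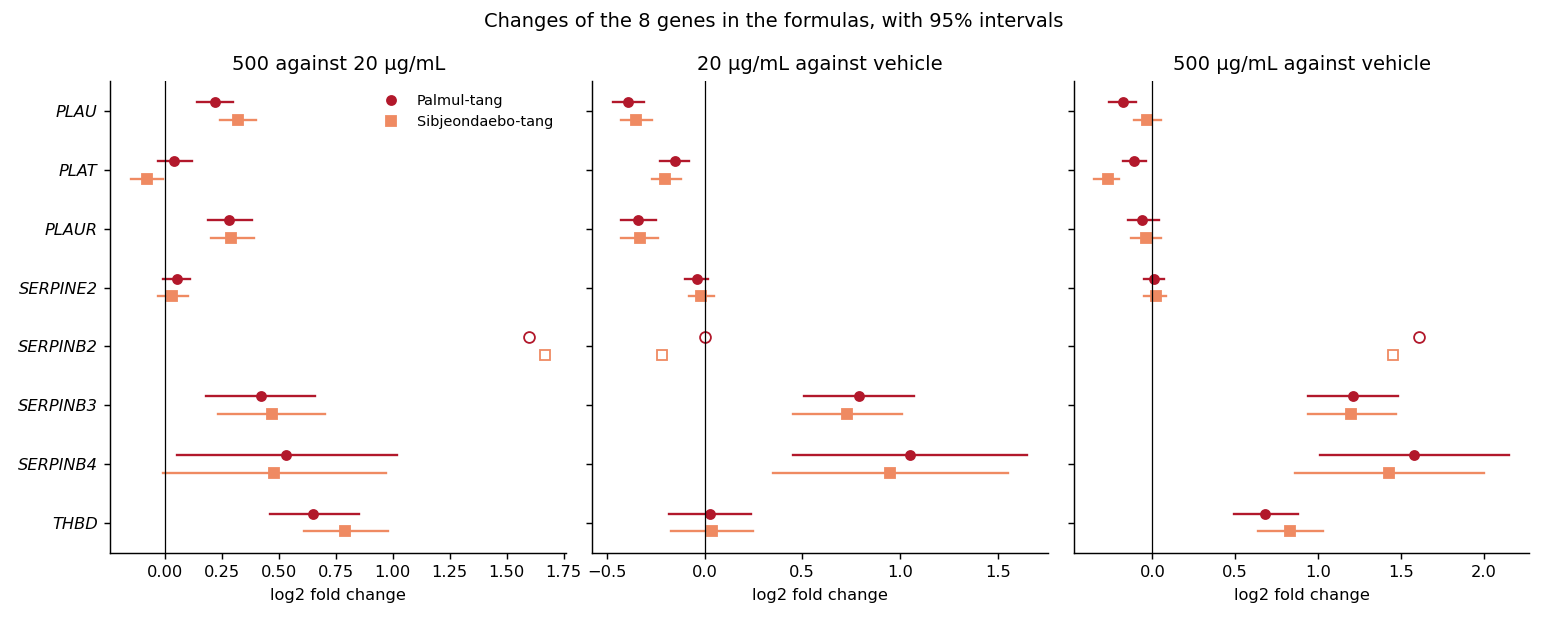
Log2 fold changes (horizontal axes) of the 8 genes in Palmul-tang and Sibjeondaebo-tang for 500 against 20 µg/mL, 20 µg/mL against vehicle and 500 µg/mL against vehicle, with 95% intervals and SERPINB2 open with no interval since its values chose it. PLAU and PLAUR are below vehicle at 20 µg/mL and rise to 500 µg/mL, while PLAT did not pass between those doses.

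The formulas were compared directly at matched doses, and 0 of the 8 genes and 0% of all genes differed by edgeR's test at 20, 100 or 500 µg/mL. At an unadjusted p under 0.05 there were 1 (SERPINB2), 1 (PLAT) and 3 (PLAT, PLAU and SERPINB2) at these doses, against 629, 478 and 863 of all genes, and DESeq2 called 0, 0 and 1. The nearest to a difference was PLAT at 500 µg/mL, lower in Sibjeondaebo-tang at -0.17 ± 0.0357 log2 (95% interval -0.24 to -0.09, adjusted p = 0.206), with libraries that did not overlap. It passed with DESeq2 (adjusted p = 0.00727) and without the library that stood apart, at -0.20 log2 (adjusted p = 0.049). SERPINB2 was at -0.15 log2 (-0.29 to -0.01, adjusted p = 0.98) and PLAU at 0.15 log2 (0.07 to 0.22, adjusted p = 0.628). The difference between the formulas in the change from 20 to 500 µg/mL passed for 0 of 8 genes and 0% of all genes by edgeR, with PLAT alone under an unadjusted 0.05 among the 8, 716 of all genes under it, and 0 by DESeq2. For SERPINB2 that difference was 0.07 log2 with an interval of -0.16 to 0.29.

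Samul-tang, Poria Cocos and Atractylodis Rhizoma had 1 library per dose, so each is described by its values and tested as the mean of its 3 doses against vehicle, with the spread taken from the replicated groups. SERPINB2 was at 29.0, 37.3 and 50.8 CPM at 20, 100 and 500 µg/mL of Samul-tang, where 95% counting intervals at the ends were 27.0 to 31.1 and 48.0 to 53.7. It was at 33.3, 40.0 and 55.6 CPM with Poria Cocos, and at 27.1, 31.3 and 34.4 CPM with Atractylodis Rhizoma. Each of these 3 extracts thus had its highest SERPINB2 at 500 µg/mL, at 1.75, 1.67 and 1.27 times the value at 20 µg/mL. All of the Atractylodis Rhizoma values lay below all vehicle libraries, and the mean of its doses was lower by the test at -0.35 log2 (adjusted p = 0.00412), but not without the 20 µg/mL library (-0.25 log2, adjusted p = 0.0577). The mean of the Samul-tang doses was at -0.04 log2. It is given without a test, because Samul-tang is a formula too and the rise of SERPINB2 in formulas chose it. The mean of the Poria Cocos doses was at 0.10 log2 (adjusted p = 0.416), and neither mean had a stable direction. Without its 20 µg/mL library Poria Cocos passed at 0.27 log2 (adjusted p = 0.0376), and without its 500 µg/mL library it was at -0.10 log2 (adjusted p = 0.494). Samul-tang was at 0.15 and -0.25 log2 without these. The SERPINB2 tests of Poria Cocos and Atractylodis Rhizoma share the vehicle libraries with the formula values that chose the gene. They are thus not independent of that choice.

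SERPINB3 with Poria Cocos was at 3.95, 4.79 and 5.03 CPM, with counting intervals of 3.27 to 4.74, 3.95 to 5.74 and 4.27 to 5.89, against 2.03 to 2.65 CPM in vehicle. That is 1.01 log2 above vehicle over the doses, given without a test because it chose the gene. The same gene was at 4.18, 4.29 and 5.01 CPM with Samul-tang and at 4.03, 3.49 and 3.75 CPM with Atractylodis Rhizoma, higher than vehicle by 0.98 log2 (adjusted p = 1.29e-06) and 0.72 log2 (adjusted p = 0.000127). These tests share the vehicle libraries with the Poria Cocos values that chose the gene, so they are not independent of that choice. As a description, all 27 treated libraries, those of Poria Cocos included, exceeded all 3 vehicle libraries for SERPINB3 and for SERPINB4. The same held for 5.33% of all genes. SERPINB4 rose by 1.37 log2 with Samul-tang (adjusted p = 0.000544), 1.08 with Poria Cocos (adjusted p = 0.00631) and 1.03 with Atractylodis Rhizoma (adjusted p = 0.00839), at 1.73, 2.13 and 2.19 CPM, 1.32, 1.54 and 2.17 CPM, and 1.58, 1.47 and 1.73 CPM. The SERPINB4 test with Poria Cocos uses the libraries that chose SERPINB3, and reads are split between the pair. It is thus not independent of that choice. The Poria Cocos value was lost without the 500 µg/mL library (0.87 log2, adjusted p = 0.0554). The vehicle libraries differ from all others in their code set, and the part of handling in this was not tested.

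Markers of squamous epithelium summed to 4.29 to 6.0 CPM in vehicle. With Palmul-tang they summed to 3.83 to 4.39 CPM at 20 µg/mL, 4.5 to 5.3 at 100 µg/mL and 5.49 to 7.19 at 500 µg/mL. With Sibjeondaebo-tang the sums were 4.37 to 4.45, 4.15 to 4.83 and 5.47 to 6.16 CPM at these doses. At rising doses they were 3.84, 4.65 and 5.13 CPM with Samul-tang and 3.79, 4.33 and 3.9 CPM with Poria Cocos. Atractylodis Rhizoma gave 4.59, 4.27 and 3.1 CPM. TP63 carried most of the sum at a median of 3.9 CPM. KRT13, IVL and DSG3 had a median of 0, and 5 of 6 markers had a median below 1 CPM. Other epithelial markers summed to 200 to 206 CPM in vehicle, 167 to 173 CPM at 20 µg/mL of the formulas and 121 to 132 CPM at 500 µg/mL. In the formulas they were thus lower at the dose where SERPINB2 and THBD were higher. At 20 and 500 µg/mL they were at 174 and 182 CPM with Samul-tang, 184 and 174 CPM with Poria Cocos and 182 and 108 CPM with Atractylodis Rhizoma. SERPINB2 and THBD were higher at 500 than at 20 µg/mL in each of these extracts. KRT18 carried most of that sum at a median of 153 CPM, while EPCAM and CDH1 were at 0.0377 and 0.0285 CPM. Markers of monocytes and macrophages, a source of SERPINB2, summed to 184 to 196 CPM in vehicle. In the formulas they summed to 160 to 180 CPM at 20 µg/mL and 169 to 184 CPM at 500 µg/mL, and in the other extracts to 140 to 164 CPM. CD68 carried most of this at a median of 157 CPM, with PTPRC at 10.8 and CSF1R at 2.79 CPM, and 3 of 6 had a median below 1 CPM. The part of any of these lists in the results was not tested.

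PLAU had higher values at each higher dose in Samul-tang (95.1, 112 and 131 CPM) and Poria Cocos (109, 121 and 128 CPM) and not in Atractylodis Rhizoma (95.8, 98.2 and 87.8 CPM). PLAUR was at 65.5, 77.8 and 77.6 CPM, 74.8, 69.9 and 80.4 CPM, and 66.3, 74.6 and 75.5 CPM in these extracts. PLAT was lower at each higher dose in all of them, from 347 to 337 to 329 CPM, from 367 to 323 to 311 CPM and from 357 to 322 to 287 CPM. All 27 treated libraries were below all vehicle libraries for PLAT, as were 7.44% of all genes, and 25 of 27 were for PLAU and for PLAUR.

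As means of doses against vehicle, the activators and the receptor were lower in all of these extracts. PLAU fell by 0.26 log2 with Samul-tang (adjusted p = 4.57e-06), by 0.17 with Poria Cocos (adjusted p = 0.00113) and by 0.51 with Atractylodis Rhizoma (adjusted p = 7.98e-12). The Poria Cocos value was lost without its 20 µg/mL library (-0.10 log2, adjusted p = 0.0808). PLAUR was at -0.29, -0.26 and -0.32 log2, and PLAT at -0.29, -0.31 and -0.37 log2, with adjusted p of at most 4.62e-05 in each. SERPINE2 was lower with Poria Cocos at -0.09 log2 (adjusted p = 0.0286), a call lost without the filter on low counts (adjusted p = 0.125) and without vehicle replicate 1 or 3 or the 100 or 500 µg/mL library (adjusted p from 0.0705 to 0.173). Its levels at rising doses were 732, 754 and 725 CPM with Samul-tang, 747, 716 and 696 with Poria Cocos and 711, 752 and 787 with Atractylodis Rhizoma. In all, 2 rose and 3 fell of the genes other than SERPINB2 with Samul-tang, 2 rose and 4 fell of 7 with Poria Cocos, and 3 rose and 4 fell of 8 with Atractylodis Rhizoma. Over all genes 12.0% rose and 15.7% fell, 12.1% and 15.3%, and 12.4% and 15.3%. The counts of the set include tests of SERPINB2, SERPINB3 and SERPINB4 that are not independent of how the genes were chosen.

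THBD had its highest value of all libraries with Atractylodis Rhizoma at 500 µg/mL. It was at 6.25, 7.46 and 13.4 CPM with Samul-tang, 8.65, 10.4 and 13.8 with Poria Cocos and 7.87, 8.52 and 15.2 with Atractylodis Rhizoma, where the interval at 500 µg/mL was 13.8 to 16.7. In Samul-tang and Atractylodis Rhizoma nearly all of the increase lay between 100 and 500 µg/mL. The mean of doses was higher than vehicle with Poria Cocos at 0.57 log2 (adjusted p = 3.28e-05) and with Atractylodis Rhizoma at 0.48 log2 (adjusted p = 0.000346), the latter resting on the 500 µg/mL library (0.18 log2 and adjusted p = 0.287 without it). Samul-tang was at 0.25 log2 and did not pass (adjusted p = 0.0749), but did without its 20 µg/mL library (adjusted p = 0.00213), without its 100 µg/mL library (adjusted p = 0.0232) and with the compared groups alone (adjusted p = 0.03). Without its 500 µg/mL library the value turned to -0.08 log2 (adjusted p = 0.686). Group means of THBD were higher at each higher dose in all 5 extracts, as were those of 0.533% of all genes. SERPINB2 had the same order, but its formula values chose it, so nothing is read from that.

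**Figure D3:**
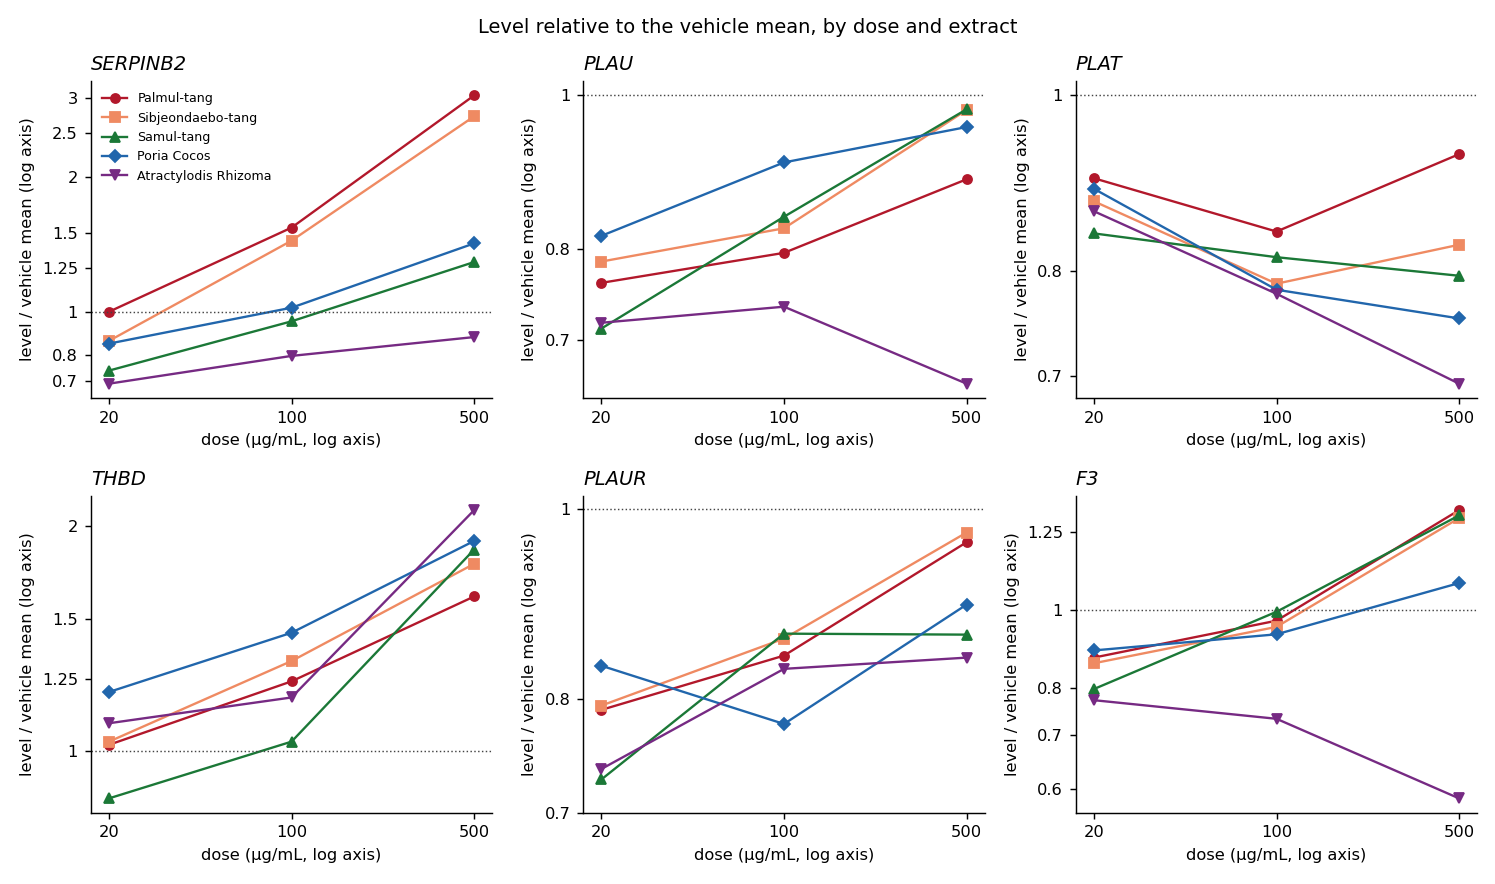
Group mean divided by the vehicle mean (vertical log axes) against dose in µg/mL (log axis) for SERPINB2, PLAU, PLAT, THBD, PLAUR and F3 in the 5 extracts, 3 libraries per point for Palmul-tang and Sibjeondaebo-tang and 1 for the others. SERPINB2 ends at 3.04 and 2.73 times vehicle in the formulas, and Atractylodis Rhizoma has the lowest PLAU, PLAT, PLAUR and F3 and the highest THBD at 500 µg/mL.

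Poria Cocos and Atractylodis Rhizoma, both ethanol extracts of a single herb, differed over their 3 doses in 2 of the 7 genes with a test, against 1.42% of all genes. SERPINB2 was higher with Poria Cocos by 0.45 ± 0.0832 log2 (95% interval 0.27 to 0.62, adjusted p = 0.0069), and PLAU by 0.34 ± 0.0391 log2 (adjusted p = 5.51e-07). Dose by dose, Poria Cocos was the higher of the pair in each of the 3 for both genes. Both calls were lost without the highest dose: without either 500 µg/mL library, which leaves the other two doses, SERPINB2 was at 0.33 log2 and PLAU at 0.24 log2, and the count that passed was 0. The calls over all genes went the same way, from 253 to 2 (0.0112%) without either library. SERPINB3, given without a test, was 0.28 log2 higher with Poria Cocos.

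The other genes of the pathway, taken from a list of 44 named by role, of which 30 were tested, moved both ways from 20 to 500 µg/mL. In Palmul-tang 5 rose, 6 fell and 19 did not pass, with a median of 0.01 log2, beside 2.83% of all genes that rose and 2.47% that fell. In Sibjeondaebo-tang 5 rose, 4 fell and 21 did not pass, with a median of 0.0 log2, beside 3.45% and 2.79%. The 5 that rose had the same names in both: F3, TFPI, TFPI2, F2RL2 and SERPINB8.

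Among the coagulation genes near THBD, F3 (tissue factor, which starts clotting) rose by 0.61 log2 (adjusted p = 1.03e-14) with Palmul-tang and 0.59 log2 (adjusted p = 1.53e-14) with Sibjeondaebo-tang. Its inhibitor TFPI rose by 0.22 and 0.16 log2, and the Kunitz inhibitor TFPI2 by 0.42 (adjusted p = 1.06e-10) and 0.41 log2 (adjusted p = 1.44e-10). Of the thrombin and protease-activated receptors, F2RL2 rose by 0.55 and 0.61 log2, while F2R fell by 0.30 and 0.33 log2 and F2RL1 fell by 0.25 and 0.27 log2. PROS1, the protein S cofactor of protein C, fell by 0.20 and 0.29 log2. The plasminogen-binding pair ANXA2 and S100A10 fell in Palmul-tang and did not pass in Sibjeondaebo-tang, a difference that itself did not pass, and both were named after their values were seen. SERPINB8 was the only other clade B serpin of 6 tested to rise, by 0.31 and 0.29 log2. SERPINB1 and SERPINB7, clade B inhibitors of other proteases, did not pass, at 0.07 and 0.18 log2 in each formula, nor did the protein C receptor PROCR at 0.07 and 0.10 log2. SERPINH1, a collagen chaperone, fell by 0.17 and 0.14 log2. SERPINA5, the protein C inhibitor, was not above 0.124 CPM in any group mean. F3 was higher with Poria Cocos than with Atractylodis Rhizoma by 0.48 log2 (adjusted p = 1.47e-10), at 138, 145 and 168 CPM against 120, 114 and 90.8 CPM. Each dose there is a single library, and F3 was not refitted without single libraries. In that comparison 3 of the 30 pathway genes tested were higher and 0 lower, beside 1.42% of all genes that passed either way.

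**Figure D4:**
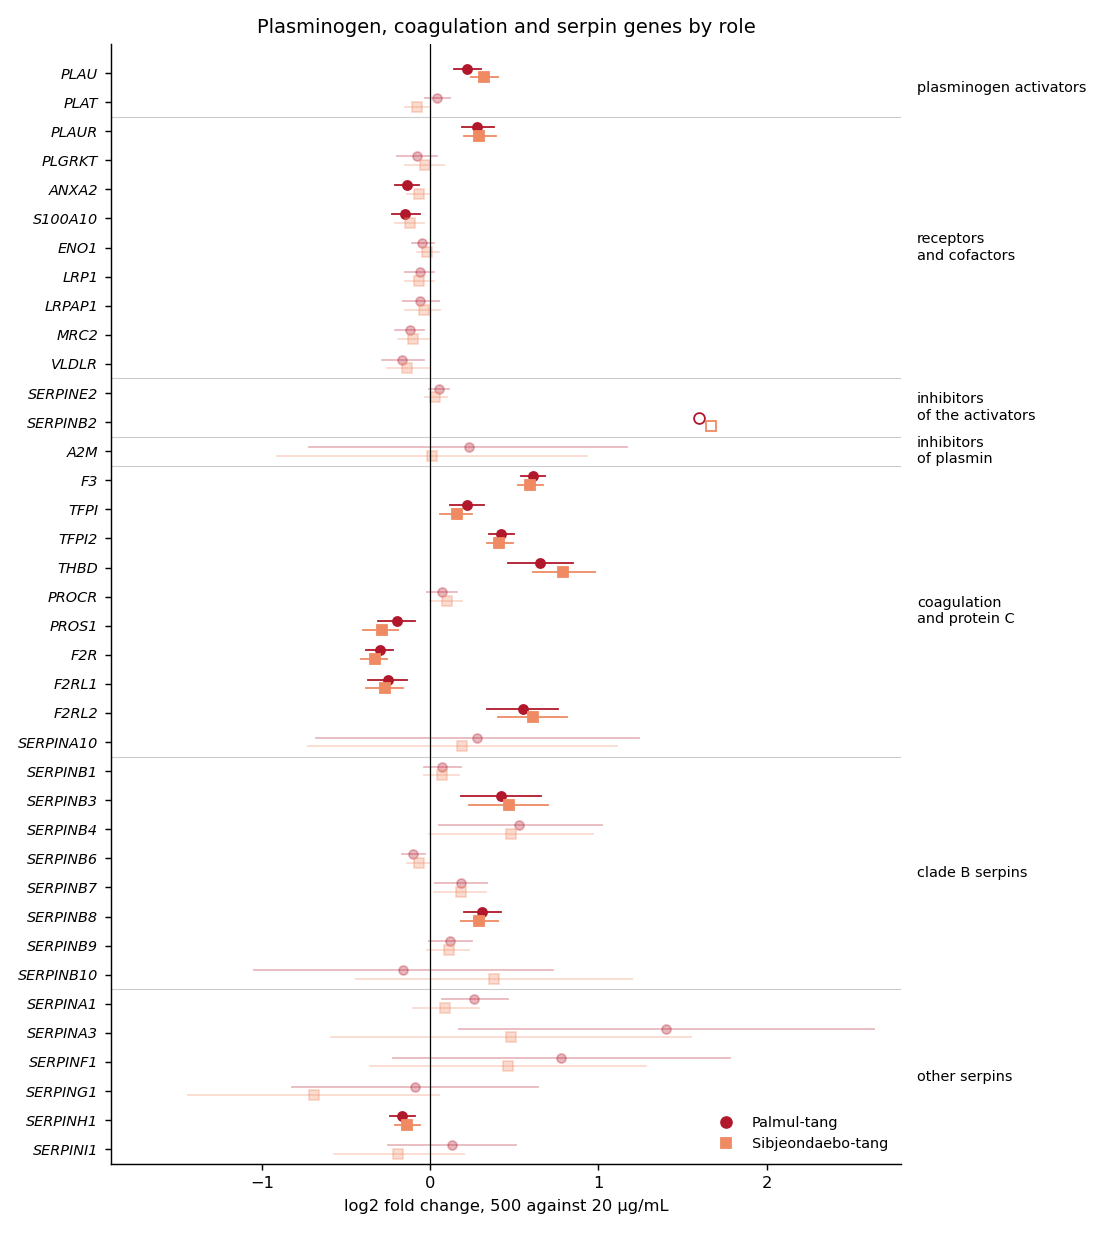
Log2 fold change from 20 to 500 µg/mL (horizontal axis) with 95% intervals for the tested pathway genes, grouped by role, in Palmul-tang (circles) and Sibjeondaebo-tang (squares), with pale symbols for genes that did not pass and open symbols for SERPINB2, which has no test. PLAU, PLAUR, F3, TFPI2, THBD and SERPINB8 lie to the right of 0 in both formulas, and F2R, F2RL1, PROS1 and SERPINH1 to the left.

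For 4 of the genes, those whose levels over the 16 group means were most alike were listed among 12642 genes whose mean log2 CPM reached 1. These correlations are descriptions: the points share libraries, depth and a vehicle group, and 9 of the 16 are single libraries. The points also include the values that chose SERPINB2 in the formulas and SERPINB3 with Poria Cocos. For SERPINB2 the formulas at 500 µg/mL, at 119 and 107 CPM, lie far above the next highest mean of 60.4 CPM. The closest to SERPINB2 was CXCL8, the chemokine interleukin-8, with Pearson's r = 0.98 and Spearman's rho = 0.935, followed by INHBA (r = 0.979), ADAMTS1 (r = 0.967), IL1B (r = 0.964, rho = 0.776) and NFKB2 (r = 0.963). The closest to PLAU were RIC8A (r = 0.928), EFTUD2, DDX21, UAP1 and KRTAP2-3 (r = 0.909). Those closest to SERPINE2 were KLF4 (r = 0.927), DPP7, TOM1, DNER and C5orf46 (r = 0.873), and those closest to SERPINB3 were DSN1 (r = 0.931), KNTC1, LPP, ERCC6 and HERC4 (r = 0.896). Ranked by rho instead, 3 of the 5 closest to SERPINB2 were the same genes, with 0 of 5 for PLAU, 4 of 5 for SERPINE2 and 1 of 5 for SERPINB3.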

How the data were processed

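RNA of SW1783 cells was measured in 30 libraries of 16 groups, taken from the sample titles. Per the labels' protocols, the kit was MGIEasy RNA Directional and 100 bases were read from each end on an MGIseq instrument. Per the submitters' processing notes, FastQC 0.11.9, Trim Galore 0.6.5, STAR 2.7.3a and RSEM 1.3.3 were used with hg38. The annotation release, strand setting and any filter are not given in the sources used here. The values the authors deposited are expected counts per gene, estimates of which 24% of the nonzero ones were not whole. They were rounded, and 249 columns of the table that match no sample here were not used. Mitochondrial transcripts took 6.43 to 7.67% of counts.

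With edgeR 4.0.16 (R 4.3.3), filterByExpr with a minimum count of 10 kept 17839 genes, and each of the 16 groups got its own mean in a single fit. It used TMM scaling and robust quasi-likelihood, with a median of 33.7 degrees of freedom, and genes passed at an adjusted p under 0.05. CPM in the text are scaled by TMM, log2 CPM use a prior count of 2, and intervals are at 95% and for single libraries cover counting error only. Positions are from GENCODE release 29, and promoters from RefSeq (GRCh38.p14). Python 3.11.15, pandas 2.3.3, scipy 1.17.1 and matplotlib 3.10.9 were used, and the fit was tested on simulated data. The 8 genes and the lists were chosen with earlier results of these data known. The pathway list held 1 more gene, which is not reported here. Named genes were the 8, pathway genes that passed between 500 and 20 µg/mL in both formulas, SERPINB10, F3, TFPI2, PLG, PROCR, SERPINA5, SERPINB1, SERPINB7, listed cell markers and the 5 closest in pattern to SERPINB2, PLAU, SERPINE2 and SERPINB3. Tried as alternatives were size factors of DESeq2 1.42.0, DESeq2 itself, no filter and a stricter one, the compared groups alone, a replicate block, summed overlapping genes and fits without each library.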

Additional observations from a re-analysis of the deposited data

Results flagged for a closer look

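SERPINB2 differed between Poria Cocos and Atractylodis Rhizoma, the ethanol extracts of a single herb, over their 3 doses. The difference was 0.45 log2 higher with Poria Cocos (adjusted p = 0.0069, quasi-likelihood test of edgeR, Benjamini-Hochberg adjusted), at 33.3, 40.0 and 55.6 CPM against 27.1, 31.3 and 34.4 CPM. Without either 500 µg/mL library it was 0.33 log2 and did not pass.

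PLAU differed between the same extracts, by 0.34 log2 (adjusted p = 5.51e-07, same test), at 109, 121 and 128 CPM against 95.8, 98.2 and 87.8 CPM. Without either 500 µg/mL library it was 0.24 log2 and did not pass (adjusted p = 0.062).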

How the results depend on the processing

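The 20 counts of genes that passed were recomputed under 241 settings in all, and 225 stayed within 1.5 times the reported count. Of the single-gene values under these settings 1899 kept their side of the threshold, 51 no longer passed, 15 newly passed and 0 of those that had passed changed sign. The count of 1899 includes SERPINB2 in the formulas and SERPINB3 with Poria Cocos, which are given without a test. From 20 to 100 µg/mL of Sibjeondaebo-tang the count went from 0 to 1 with no filter on low counts, with the stricter filter, with the replicate block and with DESeq2, each time by PLAT at -0.15 log2 (adjusted p = 0.0221, 0.0437, 0.0245 and 0.00481, against 0.0656), and it was 0 to 1 without single libraries. Sibjeondaebo-tang against Palmul-tang at 500 µg/mL went from 0 to 1 with DESeq2, and was 0 to 1 without single libraries. Without single libraries, Palmul-tang 500 against 100 µg/mL ran from 0 to 4, Sibjeondaebo-tang 500 against 100 µg/mL from 1 to 3, and Poria Cocos against Atractylodis Rhizoma from 0 to 2. The main fit had no block for replicate number. No pair of groups had all 3 correlations of same-numbered libraries over 0.1. Among the formula groups the mean of these correlations reached 0.168, for Palmul-tang 20 with Sibjeondaebo-tang 100 µg/mL. It was negative only for Palmul-tang with Sibjeondaebo-tang at 100 µg/mL (-0.076). What same-numbered libraries share was not tested. With the replicate block, 15 of 16 counts stayed as they were. The cause of these changes was not tested. The fit on compared groups alone was not run for Poria Cocos against Atractylodis Rhizoma, which leaves no residual degrees of freedom. Depth limits SERPINB4 most, with counting intervals up to 52.9% of the value.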
